A study of Rattus norvegicus with 6 samples.

Results

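The 6 RNA-seq samples of adult rat hippocampal neural stem cells carried the numbers 1, 2 and 3 in each of 2 siRNA groups, and both samples numbered 1 stood apart from the 4 samples numbered 2 or 3. The comparison below is of these 2 samples with the other 4, for the genes outside the BMP and interferon target lists. A gene was counted as apart when, in siControl and in siDerl1 alike, the sample numbered 1 lay outside both other samples of its siRNA group and at least 2-fold from their mean on the log2(TPM + 1) scale. TPM, the level of a transcript corrected for its length, sums to the same total in each sample. Of 17315 genes in the tables, 10331 had a mean of at least 1 TPM, and 182 of these were apart, 155 lower and 27 higher in the samples numbered 1. The lower genes make up 1.5% of the genes tested and the higher genes 0.261%. Of the 155 lower genes, 14 were on the list of BMP targets and 60 on the list of interferon targets. The remaining 81, and all 27 higher genes, were on neither list, and these 108 genes are described here. They were selected on the difference between the numbers, which is therefore given as a description with no test.

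All 6 samples came from HCN, a cloned line of neural stem cells isolated from the adult rat hippocampus, and thus from 1 clone. Each received either a control siRNA duplex (siControl) or an siRNA against Derl1 (siDerl1), and each was then held for 2 days with BMP4, which was used to bring the cells to quiescence. Every group therefore had BMP4 and an siRNA transfection, and no proliferating or untransfected sample was analysed here. The labels do not say what a number stands for, nor that the 3 samples of a group came from separate cultures, so the tests measure the spread between these samples only. Numbers of reads are not given in TPM tables, and the depth is unknown.

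Adult neural stem cells leave and re-enter the cell cycle under the control of BMP, Notch, WNT and FGF signals. BMP ligands act through SMAD proteins on the Id and Hey genes and hold hippocampal stem cells in quiescence, while FGF2 drives proliferation. Stem cells and astrocytes share much of their program, including Sox9, Fgfr3 and the matrix proteins tenascin-C and neurocan. Cells short of oxygen stabilize hypoxia-inducible factor, which raises genes of glucose uptake, glycolysis and mitophagy through short DNA cores, ACGTG among them.

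The siRNA target itself was lower in every siDerl1 sample. Derl1, whose product takes misfolded proteins out of the endoplasmic reticulum, was at 122, 132 and 128 TPM in siControl 1, 2 and 3 and at 44.9, 70.8 and 74.0 TPM in siDerl1 1, 2 and 3, with no overlap. It fell by 1.03 ± 0.11 on the log2 scale (SE, n = 3 against 3; limma with the number as a covariate, adjusted p = 0.00703), a call lost with no filter on low values (limma, adjusted p = 0.0509) and without the trend (limma, adjusted p = 0.176). The split by number was chosen from the first principal component of these values, so that component is given as a description only. It held 55.7% of the variance of the tested genes and put the samples numbered 1 at one end in both siRNA groups. The other samples lay at the opposite end. Between 11641 and 11808 genes were above 0 per sample, and scaling factors lay between 0.987 and 1.01. The median difference over all tested genes was -0.02 in siControl and 0.01 in siDerl1. Sox2, a transcription factor of neural stem cells, was at 512, 493 and 445 TPM in siControl and 565, 514 and 458 TPM in siDerl1, in the order of the numbers. Of the 16 microglial markers 12 stayed under 1 TPM in every sample, as did 16 of the 17 endothelial and mural markers. The microglial markers Cx3cr1, Trem2, Tyrobp and C1qa were at 0 in every sample, while 4 others on that list were tested, with median differences of 0.63 in siControl and -0.05 in siDerl1 and none apart at either limit. Of the 13 fibroblast and meningeal markers 7 stayed under 1 TPM in every sample, and the 5 tested had medians of 0.10 in siControl and 0.34 in siDerl1, with 3 positive in both groups and none apart at either limit. The highest value on that list was 75.3 TPM, and its part in the results was not tested. In these bulk samples, fewer cells of a type and less RNA per cell cannot be told apart.

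**Figure D1:**
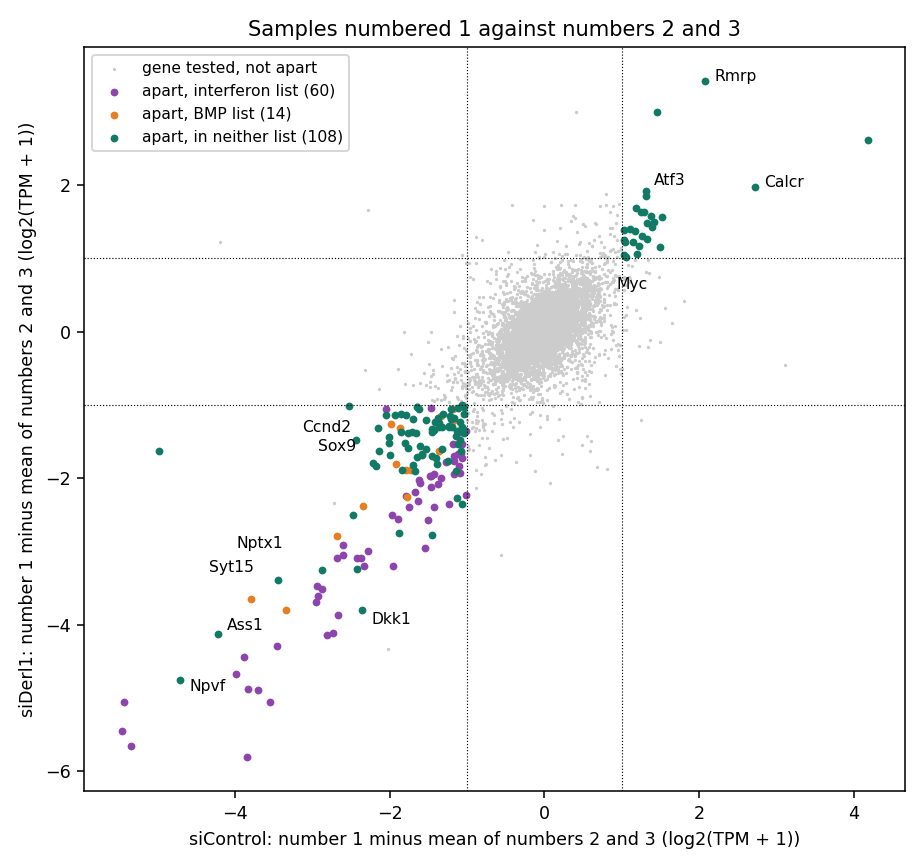
Difference of the sample numbered 1 from the mean of numbers 2 and 3 on the log2(TPM + 1) scale, in siControl (horizontal) and siDerl1 (vertical), 1 point per tested gene, with dotted lines at 2-fold. The genes apart on neither list (green) and those of the interferon (purple) and BMP (orange) lists each lie on the same side of 0 in both siRNA groups. Npvf and Ass1 are farthest out among the labelled genes. The interferon list lies farther out in siDerl1, with medians over its tested genes of -1.16 in siControl and -1.75 in siDerl1. For the BMP list these were -1.15 and -1.22.

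The siRNA groups shared most of the lower genes and fewer than that of the higher genes. Number 1 was chosen from these values, so the overlap is a description. In siControl alone 242 genes were lower by 2-fold in sample 1, and 64.0% of them met the limit in siDerl1 as well. That limit was met in siDerl1 by 238 of all 10331 tested genes. In siDerl1 alone 65.1% of these 238 genes met it in siControl, against 242 of all 10331. The share was smaller among the higher genes. It was 47.4% of 57 siControl genes, against 102 of all 10331 in siDerl1, and 26.5% of 102 siDerl1 genes, against 57 of all 10331 in siControl. Across the 10203 genes on neither list, Pearson's r between the siControl and siDerl1 differences was 0.596, a description over genes of the same 6 libraries. At a limit of 1.5-fold, 325 genes were lower (3.15%) and 142 higher (1.37%), of which 234 and 142 were on neither list. Among the genes with a mean of at least 5 TPM, Inpp5j (-1.64 in siControl and -1.03 in siDerl1) was just inside the 2-fold limit and the cell cycle inhibitor Cdkn1c (-0.997 and -1.21) just outside it. On the higher side Prelp (1.06 and 1.01) was just inside and Ppap2a (0.99 and 1.13) just outside.

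The promoters of the lower genes on neither list held the DNA letters common in the listed genes at about the share of all tested genes. RefSeq promoter windows (GRCr8, 250 bases before to 50 after the start) were found for 135 of the 182 genes apart. Both strands were searched for GGCGCC, a GC-rich sequence bound by BMP SMADs, and for GAAANNGAAA, the core of the interferon-stimulated response element. GGCGCC stood in 8 of 10 windows of BMP targets apart (80.0%), in 15 of 60 windows of the lower genes on neither list (25%) and in 22.3% of the windows of all tested genes. The interferon element stood in 30 of 46 windows of interferon targets apart (65.2%), in 2 of 60 on neither list (3.33%) and in 2.84% of all tested. Among the 19 windows of higher genes, 3 held GGCGCC (15.8%) and 1 the interferon element (5.26%). The 2 lower genes with the interferon element were MGC108823 and MGC105567. The lists are not complete, and BMP or interferon targets that they lack can be among the 108. The windows below show GGCGCC in capitals upstream of 3 lower genes on neither list, with the BMP target Nog for comparison.
Cebpa (GRCr8 chr1:96896471-96896530, plus strand, site from -88): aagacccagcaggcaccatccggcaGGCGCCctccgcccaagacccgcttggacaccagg
Lcat (chr19:50748207-50748266, minus strand, site from -177): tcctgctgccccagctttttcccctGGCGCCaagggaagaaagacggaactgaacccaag
Mt2A (chr19:10838756-10838815, minus strand, site from -82): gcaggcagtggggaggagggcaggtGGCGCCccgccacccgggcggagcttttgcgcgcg
Nog (chr10:74627518-74627577, minus strand, site from -51): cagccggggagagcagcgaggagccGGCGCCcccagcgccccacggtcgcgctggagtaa

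Ranked by the smaller of the siControl and siDerl1 differences, the first 4 genes on neither list with a mean of at least 5 TPM were Npvf, Ass1, Syt15 and Nptx1. Npvf, the precursor of RFamide-related peptides, was at 8.23 TPM in siControl 1 against 279 and 209 TPM in siControl 2 and 3. In siDerl1 it was at 2.83 TPM against 125 and 84.5 TPM, so that numbers 2 and 3 averaged 29.6-fold over number 1 in siControl and 37.0-fold in siDerl1. Ass1, argininosuccinate synthase of the urea cycle and arginine synthesis, was at 1.77 TPM against 53.4 and 48.1 TPM in siControl and at 1.55 TPM against 40.3 and 47.3 TPM in siDerl1. For Ass1 the 2 folds were nearly equal, at 28.7 and 28.2. Syt15, a synaptotagmin, was at 1.38 against 25.6 and 24.0 TPM and at 0.81 against 16.9 and 19.0 TPM. Nptx1, neuronal pentraxin 1, was at 4.18 against 38.5 and 35.6 TPM and at 0.85 against 16.5 and 16.8 TPM. In each of these 4 genes every sample numbered 2 or 3 lay above both samples numbered 1. The limma difference with siRNA as a covariate was -4.74 ± 0.16 for Npvf, -4.18 ± 0.12 for Ass1, -3.41 ± 0.14 for Syt15 and -3.07 ± 0.14 for Nptx1 (log2, SE, n = 2 against 4).

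Secreted inhibitors of WNT signaling among the genes apart differed in both directions. Such inhibitors that were not apart were not counted. Dkk1, which blocks the LRP co-receptors, was at 39.3 TPM against 225 and 187 TPM in siControl and at 6.27 TPM against 100 and 99.7 TPM in siDerl1. Wif1, which binds WNT ligands, was at 130 against 460 and 591 TPM and at 136 against 366 and 529 TPM. Sost, which also binds LRP receptors, was listed at 0 in both samples numbered 1 and at 1.06 to 2.56 TPM in the others. Frzb, a soluble frizzled-related protein, lay on the opposite side, at 9.29 TPM against 2.37 and 3.62 TPM in siControl and 12.3 TPM against 4.02 and 2.93 TPM in siDerl1. The samples numbered 1 thus had less Dkk1 and Wif1 and more Frzb than any other sample. Of the 28 tested genes of the WNT list, which does not hold Sost, 2 were lower and 1 higher at 2-fold, and at 1.5-fold 4 were lower, with the receptors Fzd4 and Fzd5, and 2 higher, with the ligand Wnt7b. Over all tested genes 1.5% were lower and 0.261% higher at 2-fold, and 3.15% and 1.37% at 1.5-fold. The median of the list was 0.10, beside -0.01 for all tested genes.

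Several genes of the stem cell and astrocyte program were lower in the samples numbered 1, while other members of their lists lay higher or overlapped. Sox9, a transcription factor required for neural stem cell formation, was at 7.5 against 38.3 and 36.5 TPM in siControl and at 9.42 against 34.7 and 37.5 TPM in siDerl1. Tnc, tenascin-C of the stem cell niche matrix, was at 5.85 against 36.2 and 26.0 TPM and at 3.71 against 14.8 and 15.7 TPM. Fgfr3, an FGF receptor of astrocytes and their precursors, was at 141 against 388 and 478 TPM and at 144 against 376 and 480 TPM. Ncan, the proteoglycan neurocan, taken here from the matrix list, was at 95.1 against 226 and 292 TPM and at 78.3 against 179 and 223 TPM. In all 4 genes the samples numbered 1 were below the lowest of the others. Nes, the intermediate filament nestin, was at 137, 125 and 113 TPM in siControl and 111, 101 and 99.4 TPM in siDerl1, so number 1 was the highest of each group but overlapped the others across groups. Gfap, the astrocyte filament, was at 47.0 against 27.7 and 28.9 TPM in siControl and at 66.3 against 47.5 and 45.3 TPM in siDerl1. Of 22 tested stem cell genes 12 were negative and 8 positive in both siRNA groups, and of 21 tested astrocyte genes 7 were negative and 10 positive, with medians of -0.15 and 0.08. At the limits, 2 stem cell genes were lower at 2-fold and none higher, and the 1.5-fold limit added Slc1a3 among the lower and Fabp7 and Sox11 among the higher genes. Among the astrocyte genes 1 was lower at 2-fold (Fgfr3) and 1 higher (Clu, the chaperone clusterin), and at 1.5-fold 4 were lower, with Slc1a2, Slc1a3 and Id3, and 2 higher, with Cpe. Over all tested genes 1.5% were lower and 0.261% higher at 2-fold, and 3.15% and 1.37% at 1.5-fold. The oligodendrocyte list (20 genes tested) and the neuronal list (20) held no gene apart at 2-fold, near the 1.5% and 0.261% of all tested genes, and 1 lower gene each at 1.5-fold, Nkx2-2 and Dpysl3.

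**Figure D2:**
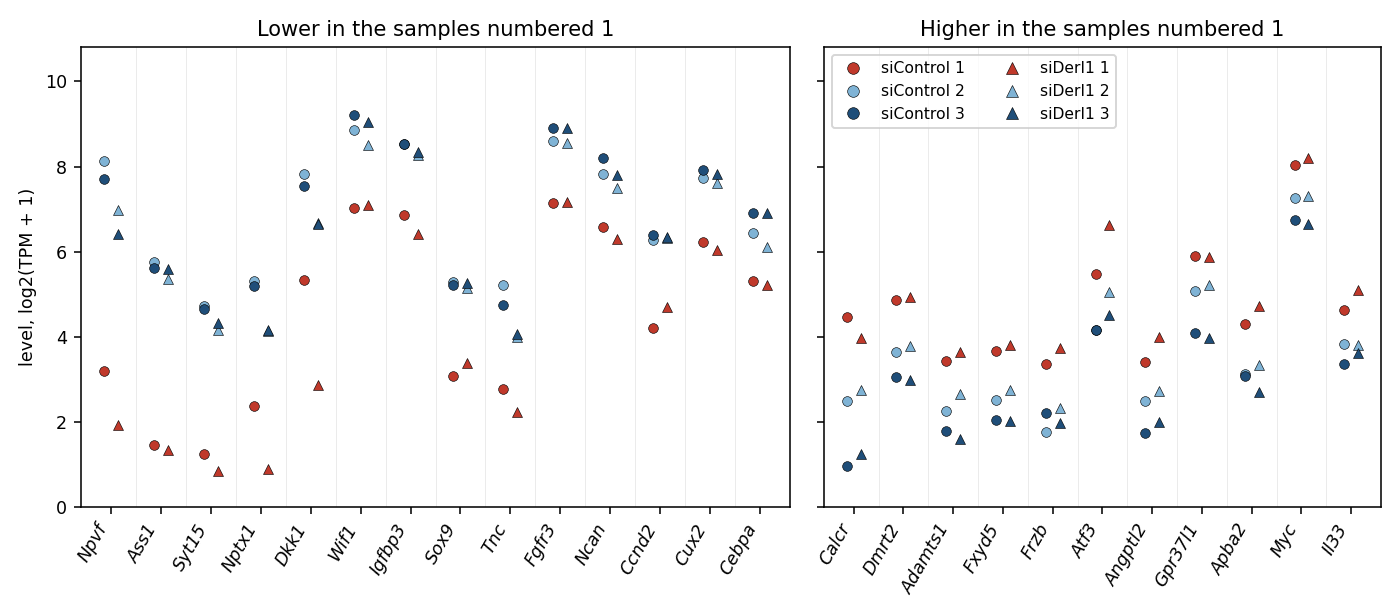
Level of 25 genes on neither list, as log2(TPM + 1), in each of the 6 samples, with circles for siControl, triangles for siDerl1 and red for the samples numbered 1. The first 14 genes have their red points below, and the last 11 have them higher than, the other points of the same shape.

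Further members on the lower side were Igfbp3, Apln, Aplnr, Mt2A, Spry4 and Ramp2. Igfbp3, which binds insulin-like growth factors, was at 115 against 372 and 366 TPM in siControl and at 84.0 against 308 and 323 TPM in siDerl1. The IGF list had 1 lower gene at 2-fold of 14 tested, and Igf1, Igfbp7 and Irs2 joined it at 1.5-fold. Of all tested genes 1.5% were lower at 2-fold and 3.15% at 1.5-fold. Its medians differed in sign, at -0.44 in siControl and 0.13 in siDerl1. The peptide Apln and its receptor Aplnr were both lower, Aplnr at 1.66 against 5.34 and 11.8 TPM and at 1.42 against 4.36 and 8.90 TPM, and Apln with a limma difference of -1.26 ± 0.19. Mt2A, a metallothionein that binds zinc and copper, was at 4.02 against 23.7 and 30.2 TPM and at 7.02 against 29.4 and 67.4 TPM. Mt3, the brain metallothionein, was at 90.8 against 74.7 and 82.9 TPM and at 93.5 against 104 and 81.6 TPM, so the numbers overlapped. Mt1a lay on opposite sides, at 5.85 against 1.7 and 2.09 TPM in siControl and at 1.14 against 3.56 and 4.36 TPM in siDerl1. Spry4, a feedback inhibitor of FGF signaling, differed by -1.31 ± 0.13, and Ramp2, a receptor partner for adrenomedullin, by -1.57 ± 0.11.

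Among transcription factors the MYC family was split. Myc was at 264 TPM against 153 and 106 TPM in siControl and at 295 TPM against 158 and 99.9 TPM in siDerl1. Mycn was at 8.05 against 20.2 and 20.4 TPM and at 7.57 against 16.8 and 24.3 TPM, and Mycl at 9.99 against 23.6 and 23 TPM and at 5.60 against 16.9 and 16.5 TPM. Myc was thus higher and both relatives lower, with no overlap between the numbers. Of the 33 tested genes for ribosome biogenesis and MYC targets, apart from Myc and Mycn themselves none was apart at 2-fold or 1.5-fold. Over all tested genes 3.15% were lower and 1.37% higher at 1.5-fold. On this list 23 were positive in both siRNA groups and 3 negative, and the median was 0.14. The 77 cytosolic ribosomal protein genes had a median of 0.12, with 62 positive in both groups and 4 negative, where 3414 of all 10331 tested genes were positive in both and 3627 negative. Other factors on the lower side were Cux2, a homeobox factor (-1.64 ± 0.08), Klf4 (-1.54 ± 0.23) and Cebpa (-1.33 ± 0.20). Atf3, a stress-induced bZIP factor, was higher, at 43.7 TPM against 17.0 and 16.9 TPM in siControl and at 97.9 TPM against 32.0 and 21.8 TPM in siDerl1.

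The immediate early genes were divided as well. Of 27 tested, 2 were higher (Atf3 and Myc) and 2 lower (Klf4 and Cyr61) at 2-fold. At 1.5-fold Fos and Jun joined the higher genes and Junb, Maff and Ctgf the lower ones. Over all tested genes 0.261% were higher and 1.5% lower at 2-fold, and 1.37% and 3.15% at 1.5-fold. Fos was at 57.0 TPM against 34.1 and 27.9 TPM in siControl and 65.4 TPM against 33.5 and 26.1 TPM in siDerl1. Junb was at 65.1 TPM against 102 and 107 TPM and at 70.9 TPM against 154 and 155 TPM. The AP-1 subunits Fos and Junb therefore lay on opposite sides in every sample numbered 1.

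On the higher side the differences were smaller and the genes fewer, and 15 of the 27 had a mean of at least 5 TPM. Calcr, the calcitonin receptor, was at 20.9 TPM against 4.61 and 0.95 TPM in siControl and at 14.7 TPM against 5.69 and 1.39 TPM in siDerl1. Dmrt2, a DM-domain transcription factor, was at 28.4 against 11.5 and 7.28 TPM and at 29.7 against 12.7 and 6.89 TPM. Gpr37l1, an orphan receptor of glia, was at 59.0 against 32.5 and 16.1 TPM and at 57.3 against 36.3 and 14.7 TPM. In these 3 genes number 1 was highest, number 2 intermediate and number 3 lowest in both siRNA groups. Adamts1, a matrix metalloproteinase of the ADAMTS family, differed by 1.46 ± 0.29, Angptl2 by 1.47 ± 0.27, the ion pump regulator Fxyd5 by 1.41 ± 0.23 and the cytokine Il33 by 1.21 ± 0.16. Of 28 tested genes for matrix proteases and their inhibitors, Adamts1 was higher and Serpinf1 lower at 2-fold, and 13 were positive in both siRNA groups and 10 negative. At 1.5-fold 5 were higher and 2 lower. Over all tested genes 0.261% were higher and 1.5% lower at 2-fold, and 1.37% and 3.15% at 1.5-fold. Rmrp, the noncoding RNA of RNase MRP, was at 19.6 TPM against 2.43 and 5.91 TPM in siControl and at 9.68 TPM against 0 and 0 TPM in siDerl1. It lacks a poly(A) tail and the libraries were selected for poly(A), so its level is uncertain. RT1-CE11 (listed at 0 in all samples numbered 2 or 3) was higher and RT1-CE7 lower, with RT1-CE7 at 0 in siControl 1 and 11.3 TPM in siDerl1 1 against 27.5 to 43.8 TPM in the others. These are near-identical MHC class I genes between which reads can be split, and their values are uncertain.

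**Figure D3:**
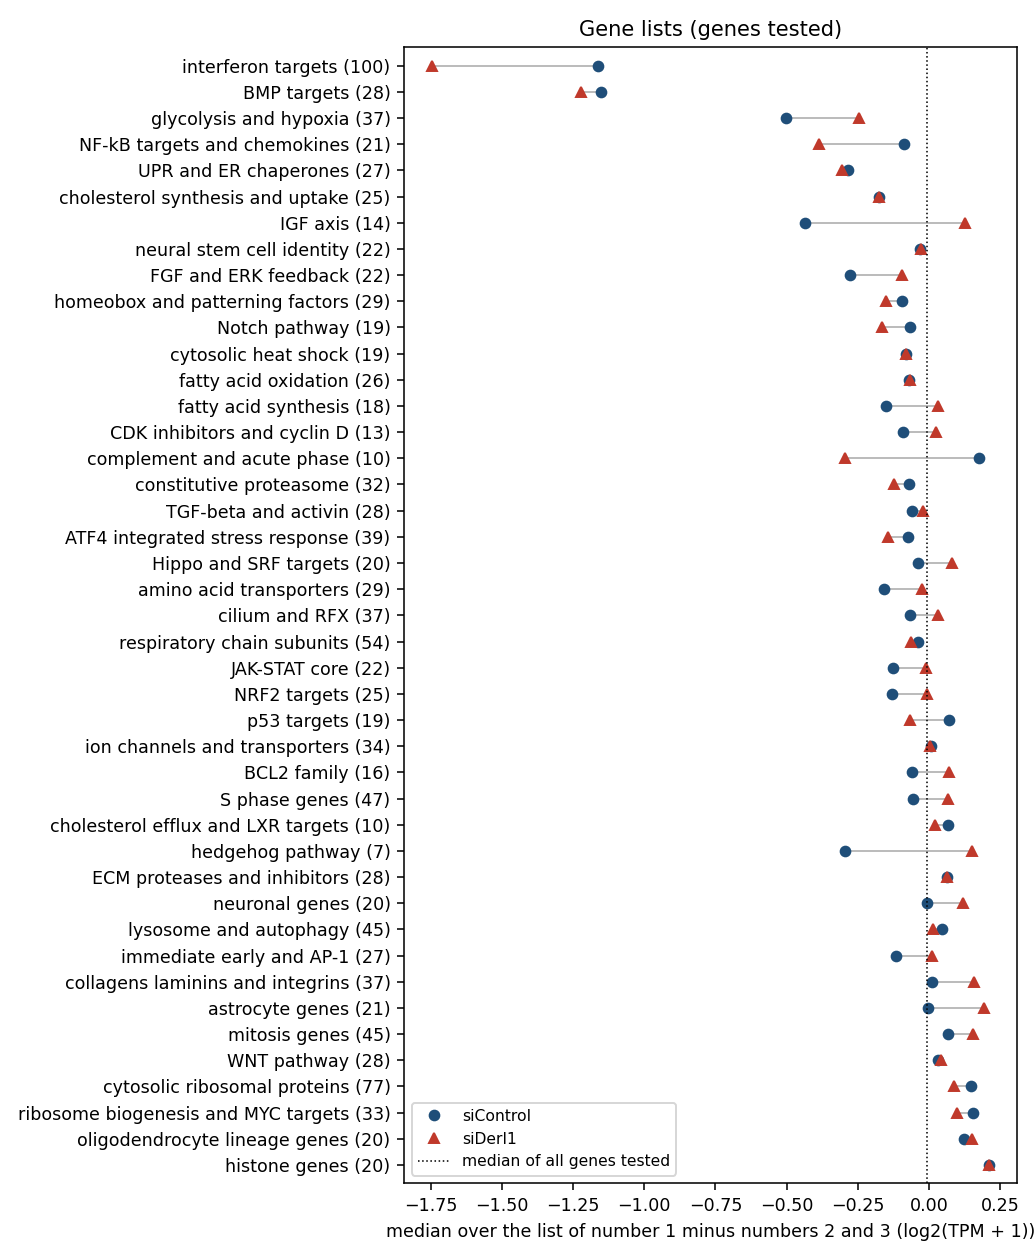
Median over each gene list of the difference between number 1 and numbers 2 and 3 (log2(TPM + 1)), in siControl (circles) and siDerl1 (triangles), for lists with at least 7 tested genes, with the number tested in parentheses. After the interferon and BMP lists, the glycolysis and hypoxia list is lowest in siControl (-0.50) and the list of NF-kB targets and chemokines in siDerl1 (-0.39), and most lists lie near the dotted median of all tested genes.

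Below the 2-fold limit, glycolysis and hypoxia was the list with the most genes lower at 1.5-fold outside BMP and interferon. Of 37 tested genes 10 were lower and 1 higher at 1.5-fold, beside 3.15% and 1.37% of all tested genes. On the list 29 were negative in both siRNA groups and 4 positive. Of all 10331 tested genes 3627 were negative in both and 3414 positive. The median was -0.36 in the fit over both groups, -0.50 in siControl and -0.25 in siDerl1. At 2-fold the list held 1 gene, Egln3, a prolyl hydroxylase that marks hypoxia-inducible factor for destruction, at 24.3 against 52.5 and 49.6 TPM in siControl and at 24.5 against 50.5 and 51.5 TPM in siDerl1. Bnip3, a mitophagy receptor, was at 190 against 438 and 492 TPM and at 243 against 406 and 505 TPM. Slc2a1, the glucose transporter GLUT1, was at 19.5 against 51.1 and 59.3 TPM and at 26.6 against 46.4 and 58.1 TPM. Vegfa was at 69.2 against 179 and 192 TPM and at 128 against 207 and 220 TPM. For all 4 genes both samples numbered 1 lay below the other 4. Hk2, hexokinase 2, differed by -1.43 ± 0.18, and Adm, Car9, Higd1a, P4ha2 and Slc2a3 were the other lower members. The siDerl1 difference was nearer 0 than the siControl one for Vegfa (-0.74 against -1.41), Hk2 (-0.99 against -1.87) and Bnip3 (-0.89 against -1.28), nearly equal to it for Egln3 (-1.03 against -1.04) and farther from 0 for P4ha2 (-1.25 against -0.88). The interaction of siRNA and number did not pass for Vegfa, Hk2 and Bnip3 without the replicate block (limma, adjusted p = 0.31, 0.536 and 0.797) and passed with it (limma, adjusted p = 0.00217, 0.0168 and 0.0446). Pdk1 (-0.32 in siDerl1 against -0.97 in siControl) and Pgk1 (-0.17 against -0.53) also passed for this interaction only with the block. Neither was lower at 1.5-fold in both groups. The abundant glycolytic enzymes differed less, with Gapdh at -0.44 ± 0.06, Ldha at -0.36 ± 0.07 and Pkm at -0.15 ± 0.06. Ndrg1, also raised by hypoxia in many cells, lay on the opposite side, at 123 against 74.5 and 74.2 TPM and at 141 against 93.5 and 84.8 TPM.

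**Figure D4:**
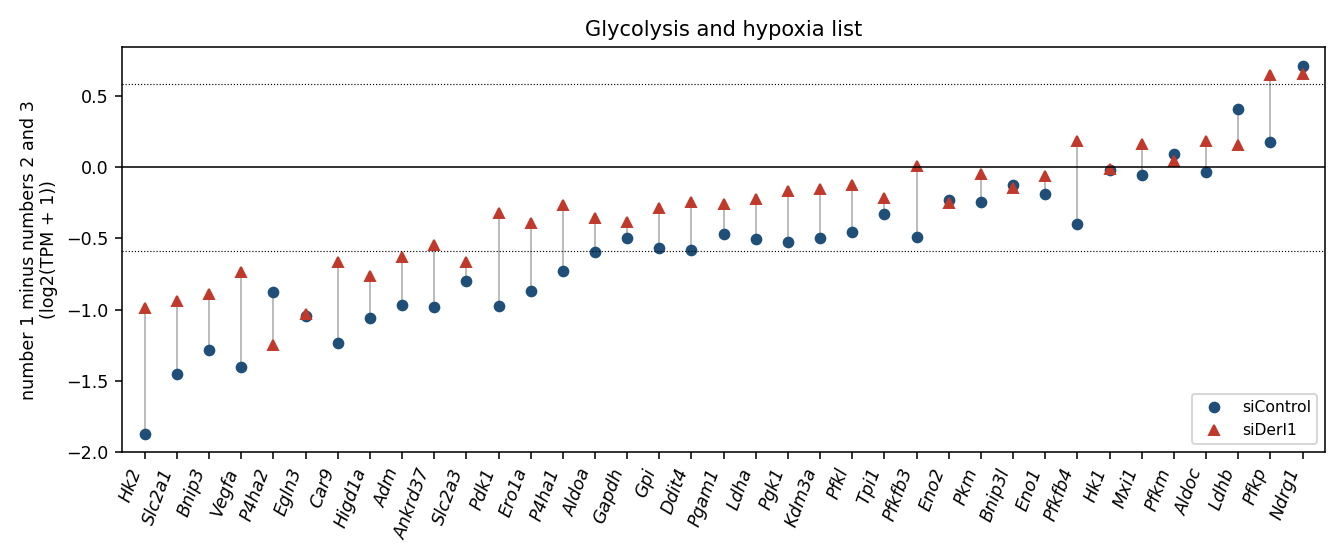
Difference between number 1 and numbers 2 and 3 (log2(TPM + 1)) for the 37 tested genes of the glycolysis and hypoxia list in siControl (circles) and siDerl1 (triangles), with dotted lines at 1.5-fold. Hk2 and Slc2a1 are lowest in siControl and P4ha2 and Egln3 in siDerl1, Ndrg1 is above the upper line in both groups, and 29 genes are below 0 in both.

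The core ACGTG, the only hypoxia core searched, did not separate the lower genes from the rest of this list. It was found in 5 of 9 windows of the lower genes (55.6%) and in 13 of 23 windows of the other list members (56.5%), against 26.4% of all tested genes and 19.7% of all 27457 RefSeq promoter windows. It stood in 9 of the 60 windows of the lower genes on neither list. Of the lower genes, Bnip3 and Slc2a1 carry it close to the start, in the first of these inside the E-box CACGTG, an overlapping motif found in 9.89% of tested genes.
Bnip3 (GRCr8 chr1:203155027-203155086, minus strand, E-box from -99): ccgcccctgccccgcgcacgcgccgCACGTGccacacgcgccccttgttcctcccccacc
Slc2a1 (chr5:138002446-138002505, plus strand, core from -51): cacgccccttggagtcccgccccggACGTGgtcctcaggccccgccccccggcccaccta

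Other stress and metabolic lists held at most 3 genes lower at 1.5-fold each. Of 27 tested genes for the unfolded protein response and ER chaperones none was apart at 2-fold, 20 were negative in both groups and 1 positive, and the median was -0.28 in siControl and -0.31 in siDerl1, in the latter lower than that of the glycolysis and hypoxia list. Hspa5, the ER chaperone BiP, was at 311 TPM against 474 and 470 TPM in siControl and at 272 TPM against 425 and 440 TPM in siDerl1. Ddit3, which encodes CHOP, was at 140, 138 and 140 TPM and at 154, 155 and 163 TPM, with overlapping numbers. Of 25 tested cholesterol synthesis and uptake genes 20 were negative in both groups and 2 positive, with a median of -0.20 and 1 gene, Tm7sf2, lower at 1.5-fold. The small heat shock genes Hspb8 (at 2-fold) and Cryab (at 1.5-fold) were lower, as were Nqo1, Hmox1 and Slc7a11 of the NRF2 list at 1.5-fold. The lists for fatty acid synthesis, fatty acid oxidation, respiratory chain subunits, lysosome and autophagy, constitutive proteasome and cilium held no gene apart at either limit. At 2-fold, 0 is near the share of all tested genes for a list of this size (1.5% lower and 0.261% higher). At 1.5-fold that share was 3.15% lower and 1.37% higher.

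The S phase and mitosis lists had no gene apart at 2-fold, which at their size is near the shares of all tested genes (1.5% lower and 0.261% higher). Of 47 tested S phase genes none was apart at 2-fold and 1, Gins2, was lower at 1.5-fold, with a median of 0.01, 13 positive in both siRNA groups and 12 negative. None of 45 tested mitosis genes was apart at either limit, and their median was 0.10, with 28 positive in both groups and 3 negative. Mki67, a marker of cycling cells, was at 77.0, 77.7 and 84.8 TPM in siControl and 94.0, 79.6 and 82.8 TPM in siDerl1, and Pcna, the replication clamp, at 379, 373 and 397 TPM and 367, 322 and 422 TPM. Ccnd2, cyclin D2, was the exception among the cyclins of these lists, at 17.4 against 76.2 and 82.9 TPM and at 25 against 78.4 and 80.4 TPM. Ccnd1, cyclin D1, differed by -0.25 ± 0.08. Of 13 tested CDK inhibitors and D cyclins Ccnd2 was lower at 2-fold and Cdkn1c, just outside that limit, at 1.5-fold. Cdkn1a, the inhibitor p21, was at 8.35 against 14.1 and 14.4 TPM in siControl and at 13.8 against 18.7 and 22.3 TPM in siDerl1. Cdkn1b, the inhibitor p27, was at 185, 202 and 177 TPM and at 191, 193 and 176 TPM, with overlapping numbers. In all, 29 of the 47 lists had no gene apart at 2-fold, the endothelial and the mitochondrially encoded lists among them, which had no gene tested. At the size of most lists, 0 is near the shares of all tested genes given above.

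The siRNA effect was estimated with the number as a covariate and was not part of how the genes were selected. It passed an adjusted p of 0.05 for 39 genes (0.378% of those tested), 10 of them among the 182 apart, 5 on the interferon list and 5 on neither list. Of the latter 5, PCOLCE2, a collagen-processing enhancer, fell by 1.28 ± 0.10 in siDerl1 (limma, adjusted p = 0.00325). Nptx1 fell by 1.23 ± 0.13 (limma, adjusted p = 0.00703), Npvf by 1.24 ± 0.15 (limma, adjusted p = 0.0101) and Dkk1 by 1.51 ± 0.24 (limma, adjusted p = 0.0394). Ccl2, a chemokine, rose by 1.62 ± 0.22 (limma, adjusted p = 0.0215). PCOLCE2 showed both differences in its levels, at 39.7, 104 and 95.5 TPM in siControl and 17.2, 43.6 and 34.5 TPM in siDerl1. Without the number as a covariate limma called 0 genes, with 692 at an unadjusted p under 0.05 against 1462 with it. The calls for Npvf, Dkk1 and Ccl2 were lost on leaving out single samples (adjusted p up to 0.0773, 0.0887 and 0.0968), while those for Nptx1 and PCOLCE2 kept their side each time (up to 0.0427 and 0.0236). Without the trend, which gave 1 call in all, both were lost (limma, adjusted p = 0.0919 for each), and with no filter on low values, which gave 7, Nptx1 was lost (limma, adjusted p = 0.0509). With the number as a replicate block 3 more of the genes apart passed for the siRNA effect, namely Ncan, Pthlh and Rmrp (limma, adjusted p = 0.0319, 0.046 and 0.046, against 0.22, 0.0577 and 0.0676).

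The interaction of siRNA and number, which asks whether the siRNA effect in number 1 differed from that in numbers 2 and 3, passed for 1 gene (0.00968%), the ubiquitin-like interferon target Isg15. Its number 1 arm rests on 1 library per siRNA group, which is assumed to vary like the others. Without adjustment 659 genes had a p under 0.05, 51 of them among the 182 apart and 13 among the 108 on neither list. Taking each number as a block left 1 residual degree of freedom and gave 150 genes, 4 of them among the 108, namely Dkk1, RT1-CE7, Adap1 and Ccl20. Under that block Dkk1, with an interaction of -1.44 ± 0.18, had an adjusted p of 3.7e-06 against 0.122 without it (limma), and Derl1 of 0.021 against 0.42. For RT1-CE7 it was 2.68e-08 against 0.0767, and for Adap1 and Ccl20 0.0205 each against 0.798 and 0.523. Outside the 108, the block also gave a call for Cryab and Mt1a (limma, adjusted p = 3.35e-05 and 0.00284, against 0.658 and 0.231) and, as given with the hypoxia genes, for Vegfa, Hk2 and Bnip3.

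Numbers 2 and 3 were themselves not alike for part of these genes. Among the 81 lower genes on neither list, number 3 lay farther from number 1 than number 2 did in both siRNA groups for 42 genes and nearer in both for 13. Among the 27 higher genes these counts were 15 and 1. Over all 10331 tested genes number 3 was above number 2 in both siRNA groups for 2662 and below it in both for 3283. As number 1 lies outside the other samples in every member, these splits are given as a description. A comparison of number 3 with number 2, chosen after the values were seen, passed for 9 genes (0.0871%), 5 of them among the 182 apart. Gpr37l1 was lower in number 3 than in number 2 by 1.11 ± 0.11 and Myc by 0.59 ± 0.07, and Ier5l was higher by 0.65 ± 0.08 (log2; limma, adjusted p = 0.0157, 0.0347 and 0.0336). The BMP targets Id1 and Nog were higher by 0.65 ± 0.06 and 0.71 ± 0.07 (limma, adjusted p = 0.0157 for each). Without siControl 3 limma called 0 genes (745 at an unadjusted p under 0.05) and without siDerl1 3 it called 2, while leaving out siControl 1 or siDerl1 1 gave 170 and 178. Npvf, Ass1, Syt15, Nptx1, Sox9 and Ccnd2 had differences between numbers 3 and 2 of -0.49, 0.04, 0.04, -0.04, 0.02 and 0.08, small beside their differences from number 1.

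**Figure D5:**
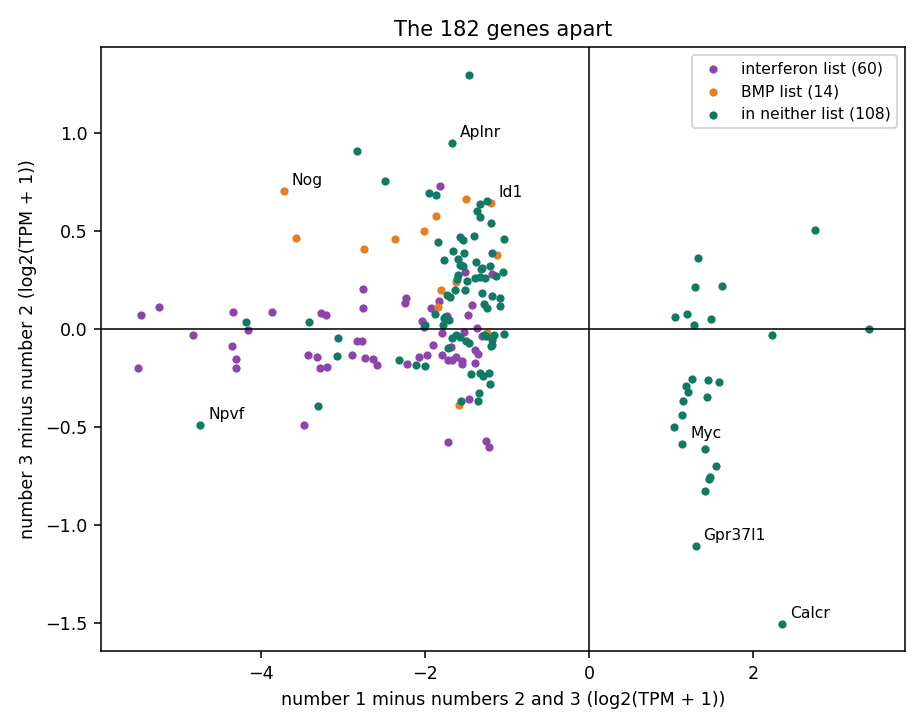
For the 182 genes apart, the difference of number 1 from numbers 2 and 3 (horizontal) and of number 3 from number 2 (vertical), both on the log2(TPM + 1) scale from limma fits with siRNA as a covariate. Nog and Aplnr lie high on the left and Gpr37l1 and Myc low on the right, while Npvf lies at -0.49 and most interferon genes (purple) lie near 0.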

How the data were processed

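Poly(A)-selected, strand-specific RNA-seq libraries of HCN cells were sequenced by the authors, 3 per siRNA group. Per the submitters' processing notes, Trimmomatic 0.39, STAR 2.7.3a, RSEM 1.3.2 and edgeR 3.28.1 were used with the rn6 genome, and the authors deposited 1 table of TPM values per sample, to 2 decimals. From these, log2(TPM + 1) was fitted with limma 3.58.1 in R 4.3.3 (eBayes with trend, Benjamini-Hochberg adjustment) over the 10331 genes with a mean of at least 1 TPM, with siRNA and number 1 as terms. Fold changes on this scale understate those of low genes. The script was tested on simulated data. Read depth is unknown, so no counting error could be given, and samples of a group are not stated to be separate cultures.

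The members, lists and comparisons were chosen with earlier results of these data known. Named genes were the 15 lower and 15 higher genes with the largest smaller-of-both differences (mean of at least 5 TPM, on neither list), up to 4 apart members of each list with at least 2, up to 5 called by a test, and 30 fixed genes. Others were named after their values were seen, namely the members just inside and outside the limit and those given for a list, family, promoter or test. Same-numbered samples of both siRNA groups deviated together from their group means over genes, with correlations of 0.697, 0.353 and 0.507 for numbers 1, 2 and 3, and with 0.345 and 0.248 for numbers 2 and 3 crossed. All 3 same-number values being over 0.1, the replicate block was reported beside the results it changed, but the distance of number 1 itself makes numbers 2 and 3 correlate and the labels give only the number, so a true pairing is not shown. Alternatives were another pseudocount, other filters, median-of-ratios scaling, no trend, leaving out each sample, the replicate block and no number term. Promoters were taken from RefSeq (GRCr8) by transcript accession, for 8092 of the tested genes. Some members of the lists are not reported here.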

Additional observations from a re-analysis of the deposited data

Results flagged for a closer look

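Isg15, a ubiquitin-like protein induced by interferon, was the 1 gene whose siRNA effect differed between number 1 and numbers 2 and 3 by the interaction term. It was at 10.2, 161 and 158 TPM in siControl 1, 2 and 3 and at 4.75, 326 and 319 TPM in siDerl1 1, 2 and 3, so it lay lower with siDerl1 in number 1 and higher in numbers 2 and 3. The interaction was -1.97 ± 0.13 on the log2 scale (limma, adjusted p = 0.00708), and the adjusted p was 0.441 with no filter on low values, 0.333 without the trend and at most 0.0277 on leaving out a sample. Isg15 is on the interferon list, and RT1-CE7 was the next gene of all tested (3.36 ± 0.34, limma, adjusted p = 0.0767). With the replicate block 4 of the 108 genes on neither list passed, RT1-CE7 among them (limma, adjusted p = 2.68e-08). The siRNA effect in number 1 rests on 1 siControl and 1 siDerl1 library, with no replicate of its own. Groups of 3 samples are too small for a check of single outlying samples.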

How the results depend on the processing

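The count of lower genes stayed within 1.5 times of 155 under every other pseudocount, filter, scaling and left-out sample (121 to 195), and was 325 at 1.5-fold. The 27 higher genes became 51 with a pseudocount of 0.1, 15 at a mean of at least 5 TPM and 142 at 1.5-fold, and 19 to 45 on leaving out a sample, the 45 without siControl 2. The 39 siRNA calls became 7 with no filter, 1 without the trend, 0 without the number term and 13 to 26 on leaving out a sample. The 1 interaction call became 2 with a pseudocount of 0.1, 0 with no filter, 0 without the trend and 3 to 8 on leaving out a sample. The 9 calls between numbers 3 and 2 became 0 with no filter, 0 without the trend, 15 at a mean of at least 5 TPM, 5 after scaling and 0 to 178 on leaving out a sample. For the counts of 0 by limma, the genes with an unadjusted p under 0.05 were 692 for siRNA without the number term, 982 and 696 for the interaction, and 942, 772 and 745 for numbers 3 and 2 (with no filter, without the trend and, for the latter, without siControl 3). The causes were not tested. Neither the count of genes apart nor the interaction can be formed without a sample numbered 1.

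With the number as a replicate block, the pairing gave 57 siRNA calls and 150 interaction calls, and every siRNA call named for a gene apart kept its side, while Ncan, Pthlh and Rmrp gained one. No named gene apart changed sign under any alternative, and of the alternative values of named genes 1164 moved by less than 1 residual SD and 93 by more. The unknown depth limits the low genes most, and 15 of the 81 lower genes on neither list were under 1 TPM in both samples numbered 1.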

Other observations

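The BMP receptors Bmpr1a and Bmpr2, which are on neither list, were lower in the samples numbered 1 at the 1.5-fold limit. Bmpr1a was at 84.5 against 142 and 146 TPM in siControl and at 63.2 against 107 and 108 TPM in siDerl1, and it fell in siDerl1 by 0.41 ± 0.06 on the log2 scale (limma, adjusted p = 0.02). Bmpr2 was at 57.9 against 123 and 143 TPM and at 67.8 against 108 and 112 TPM. Krt15, a keratin, was listed at 0 in both samples numbered 1 and at 3.09 to 12.5 TPM in the others. The histone list (20 genes tested) had a median of 0.17, with 10 genes positive in both groups and 4 negative.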
